A study of Mus musculus with 36 samples.

Results

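The glutathione peroxidases were followed in the livers of mice that lack the insulin receptor in hepatocytes and of their controls. Glutathione peroxidases reduce hydrogen peroxide or lipid hydroperoxides with electrons taken from glutathione or another thiol. Gpx1, Gpx2, Gpx3 and Gpx4 are selenoproteins, whose active site holds a selenocysteine, while Gpx7 and Gpx8 carry a cysteine there and reside in the endoplasmic reticulum. Gpx3 is the secreted, plasma form and is known to be made mainly by the kidney, Gpx1 is the abundant cytosolic and mitochondrial form of liver, Gpx2 is best known from the gut epithelium, and Gpx4 reduces lipid hydroperoxides in membranes.

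The members were the 6 genes Gpx1, Gpx2, Gpx3, Gpx4, Gpx7 and Gpx8, each chosen through the gene name that the array design gives its probes. Every member was read by 1 probe and 1 spot, so 6 probes of the 56605 non-control probes stood for them, and they were 6 of the 23057 genes kept for testing. Gpx3 was selected on the measured difference between knockouts and controls, as the gene with the largest rise of the series. Its difference between genotypes is therefore given as a description with no test, while the other 5 members were tested.

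The 36 liver samples came from male mice aged 11 weeks and are taken as 1 mouse each; mice were fed chow ad libitum under 12 h of light and 12 h of dark, and 200 ng of total RNA a sample was labelled with Cy3 and hybridised to 1-colour Agilent arrays. The knockouts, labelled IRLKO (IRhep-/-), came from a tamoxifen-inducible line in which Cre recombinase under the transthyretin promoter (TTR-CreTam) removes a floxed exon (the fourth) of the insulin receptor gene in hepatocytes; the controls, labelled IRLWT (IRhep+/+), belong to the same line, and the labels do not say whether they carried Cre. Mice were sampled at Zeitgeber time ZT8, in the light phase, at ZT12, when the lights went off, and at ZT16, in the dark phase, with 6 mice in each of the 6 groups of genotype and time. The labels state that the mice received no treatment, and they give no time for a tamoxifen dose; other cells of the liver keep the receptor.

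Signals are given as the log2 of the scanner's processed intensity minus the 75th percentile of the same array, called the log2 relative signal. The 75th percentile lay between 311 and 525 intensity units over the 36 arrays, between 53.7% and 63.1% of spots were well above background, and no spot was saturated. Knockout ZT8 replicate 3 stood apart from its group, with 3.21 on the second principal component against 29.3 to 46.1 for the other 5 mice, and results on ZT8 knockouts are given without it where they change. The brightest probe for the insulin receptor, Insr, read -1.86 to -1.01 in the 18 controls and -3.95 to -2.94 in the 18 knockouts. On that probe the labelled genotypes thus did not overlap. Its signal left in the knockouts was 29.3%, 27.2% and 31.8% of the control level at ZT8, ZT12 and ZT16. Whether it reads the deleted exon was not determined. A further Insr probe, well above background on 27 of the 36 arrays, is not given here. All 7 hepatocyte markers listed for the check were well above background on every array, and of these 2, 3 and 2 were called lower in knockouts at ZT8, ZT12 and ZT16 and 2 higher at ZT12. Alb, albumin, fell by 0.41, 0.35 and 0.39 and Ttr, transthyretin, by 1.12, 1.02 and 0.97. At ZT12 alone Apob was called lower (-0.29) and Tat (0.55) and Hnf4a (0.31) higher, while Apoa1 and Serpina1a were not called at any time. The summed linear signal of the list was 3222 to 3980 in controls and 2451 to 3601 in knockouts at ZT8, with overlap. It was 3679 to 4053 and 2726 to 3466 at ZT12 and 3656 to 4395 and 3014 to 3273 at ZT16, with no overlap at either time. The part of this in the results was not tested. In bulk liver RNA, fewer cells of a type and less RNA per cell cannot be told apart.

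The array probes sit at these places in mm9: Gpx1 at chr9:108242276-108242335, Gpx2 at chr12:77893402-77893461 (minus strand), Gpx3 at chr11:54723436-54723495, Gpx4 at chr10:79518691-79518842, Gpx7 at chr4:108073303-108073362 (minus strand) and Gpx8 at chr13:113833213-113833272 (minus strand). Which exon each lies in was not analysed here. The 60 bases of the Gpx4 probe span 152 bases of genome, so that probe crosses an exon junction. The longest run of letters that any of the 15 pairs of member probes shared was 7 bases, so the members are read by unlike sequences although they are one family. The probes of the constitutive liver forms, Gpx1 and Gpx4, are shown to make that plain, in lower case throughout because the whole probe is the reading sequence.
Gpx1: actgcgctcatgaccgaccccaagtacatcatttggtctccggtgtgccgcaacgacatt
Gpx4: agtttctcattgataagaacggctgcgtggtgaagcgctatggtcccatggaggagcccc

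The 250 bases before the annotated start are shown for Gpx3 and Gpx7, the members whose signal was higher in knockouts at all 3 times. They are RefSeq sequences of build GRCm38.p6, on the strand of the gene, at chr11:54902604-54902853 for Gpx3 and chr4:108406714-108406963 (minus strand) for Gpx7. Capitals mark matches on either strand to 5 motifs. These were TGTTTAC for forkhead factors, among them those that insulin signalling keeps out of the nucleus, then CCAAT for the factors named after that box, then GGGCGG for Sp factors, then the TATA box as TATAAA, and TGACNNNGC for the antioxidant response element. The letters of the 5 motifs do not overlap in these windows.
Gpx3: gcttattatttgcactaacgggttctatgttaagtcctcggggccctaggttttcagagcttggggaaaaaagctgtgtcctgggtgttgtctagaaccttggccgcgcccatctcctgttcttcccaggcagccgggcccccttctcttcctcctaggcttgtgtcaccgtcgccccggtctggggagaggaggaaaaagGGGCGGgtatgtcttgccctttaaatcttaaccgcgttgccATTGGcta
Gpx7: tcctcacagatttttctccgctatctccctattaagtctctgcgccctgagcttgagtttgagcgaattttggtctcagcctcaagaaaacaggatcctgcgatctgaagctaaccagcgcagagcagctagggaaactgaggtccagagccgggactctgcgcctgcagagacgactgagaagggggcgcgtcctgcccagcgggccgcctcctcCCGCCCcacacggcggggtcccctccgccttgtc
Both windows held GGGCGG, from 49 bases before the start in Gpx3 and, on the other strand, from 34 bases before it in Gpx7. This motif is common: 32.7% of all 32851 promoter windows of the same length held it. The Gpx3 window also held CCAAT on the other strand, from 8 bases before the start, as 33.8% of all windows did. Neither window held TGTTTAC, found in 3.17% of all windows, nor TATAAA, found in 12.4%, nor the antioxidant response element, found in 10.2%. These matches describe letters in the windows, and no match says nothing about a factor.

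**Figure D1:**
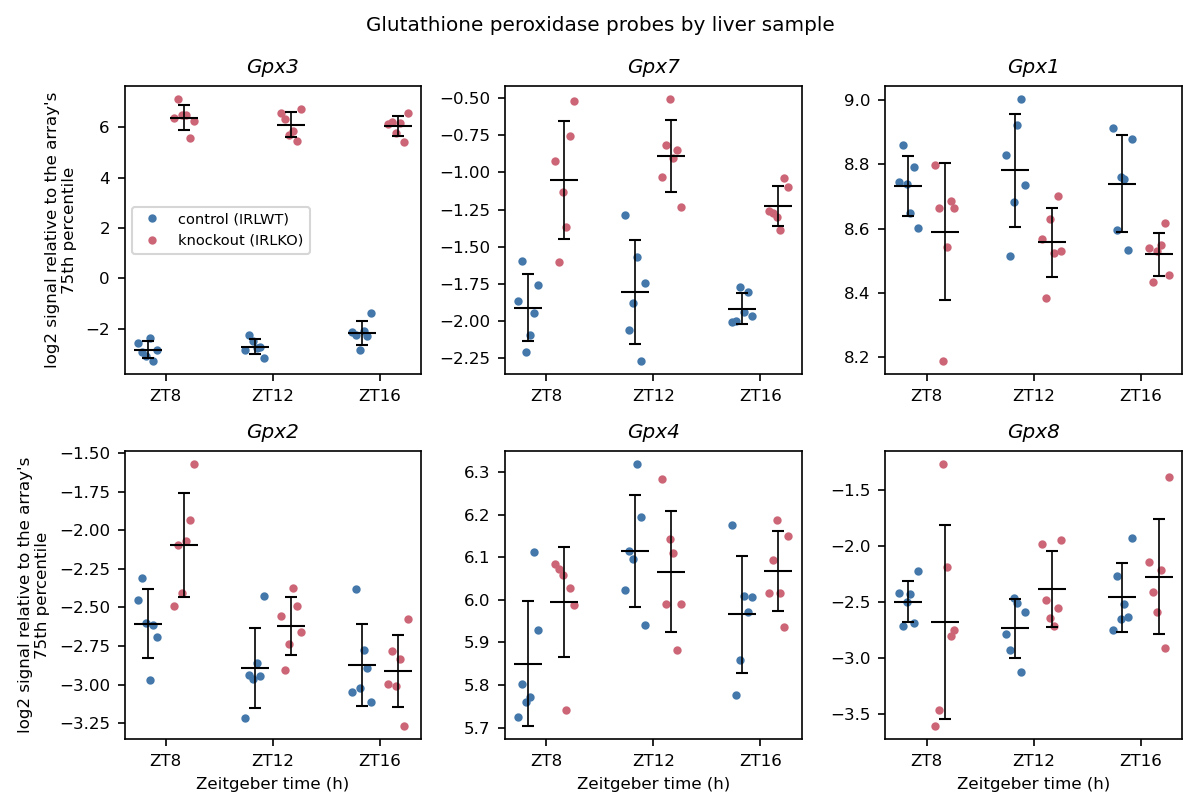
Log2 relative signal of the 6 glutathione peroxidase probes in each liver sample (y axis, a scale of its own in each panel) by Zeitgeber time (x axis), with 6 mice in each group; points are mice, bars the mean and SD. Gpx3 lies between -3.29 and -1.37 in controls and between 5.42 and 7.12 in knockouts, while the other members differ far less.

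Gpx3 was low in every control liver and high in every knockout liver. At ZT8 the controls read -3.29 to -2.36 (median -2.88) and the knockouts 5.56 to 7.12 (median 6.43). At ZT12 the controls read -3.18 to -2.26 (median -2.75) and the knockouts 5.46 to 6.73 (median 6.11). At ZT16 the controls read -2.86 to -1.37 (median -2.18) and the knockouts 5.42 to 6.57 (median 6.16). No knockout came near a control: the empty space between the groups was 7.92, 7.72 and 6.79 on the log2 scale at ZT8, ZT12 and ZT16. In scanner units the probe read 38.7 to 123 in the 18 controls, where it was nevertheless well above background on each array, and 17780 to 55606 in the 18 knockouts.

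The difference between knockouts and controls was 9.17 on the log2 scale at ZT8, 8.87 at ZT12 and 8.21 at ZT16, each with an SE of 0.23. These are 576-fold, 469-fold and 296-fold differences in level. The size rests on small control signals, so the background correction and any added offset set it in part. The normexp correction used here adds an offset of 50 intensity units, which lowers a difference from so dim a control by construction. With it the differences were 8.11, 7.88 and 7.44. In the authors' deposited table they were 8.52 and 8.31 at ZT8 and ZT12. Within the 3 wash batches the difference ran from 8.38 to 9.90 at ZT8, from 8.51 to 9.44 at ZT12 and from 7.54 to 8.40 at ZT16. Leaving out any 1 array moved it by little, to between 9.02 and 9.31 at ZT8, to no less than 8.76 at ZT12 and to between 8.10 and 8.38 at ZT16.

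The next largest rise past the threshold, taking only probes detected over background on all arrays, was that of Ntf3, the neurotrophin NT-3, at ZT8 (5.17 on the log2 scale). At ZT12 and ZT16 it was that of Igfbp1, the insulin-like growth factor binding protein that insulin represses in liver, with differences of 5.60 and 5.30. For scale, 16.7%, 19.6% and 19.9% of all 23057 genes were called higher in knockouts at ZT8, ZT12 and ZT16, and Gpx3 was picked as the top of this order.

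The group means of Gpx3 ran, from low to high, control ZT8 (-2.84 ± 0.34, SD, n = 6), control ZT12 (-2.71 ± 0.31), control ZT16 (-2.16 ± 0.48), knockout ZT16 (6.05 ± 0.40), knockout ZT12 (6.11 ± 0.51) and knockout ZT8 (6.38 ± 0.50). Time within a genotype was tested, though the same values entered the genotype comparison that chose the gene. The p-values below carry that limit. Neighbours within a genotype did not differ past the threshold: limma's adjusted p was 0.774 for controls at ZT12 against ZT8, 0.212 at ZT16 against ZT12, 0.730 for knockouts at ZT12 against ZT8 and 0.867 at ZT16 against ZT12. Across the longer interval, Gpx3 in controls was higher at ZT16 than at ZT8 by 0.69 on the log2 scale (SE 0.23, limma adjusted p = 0.0270, 26.6% of all genes called in that comparison), and 5 of the 6 ZT16 controls lay above all ZT8 controls. That call was lost with normexp and its offset of 50 (0.40, adjusted p = 0.141). The deposited table (0.49, 0.0832) and a fit of these 2 groups alone (0.69, 0.0550) lost it too. It was also lost without control ZT16 replicate 6 (0.52, 0.116), the control with the most Gpx3, without control ZT16 replicate 1 (0.63, 0.0612), or without control ZT8 replicate 5 (0.58, 0.0732), 6 (0.66, 0.0543) or 2 (0.65, 0.0524). In knockouts ZT16 and ZT8 differed by -0.27 (95% interval -0.75 to 0.20, adjusted p = 0.430).

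Because Gpx3 is known as a kidney product, the kidney markers stand beside it. The 8 kidney markers listed include Umod and Slc12a1, which were well above background on no array, and Kap, which was so on 1 array. The summed linear relative signal of the list was 0.25 to 0.54 in the 18 controls and 0.31 to 0.53 in the 18 knockouts. Of the 4 kidney markers tested, 1 was called higher at ZT8, 1 lower at ZT12 and none at ZT16.

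**Figure D2:**
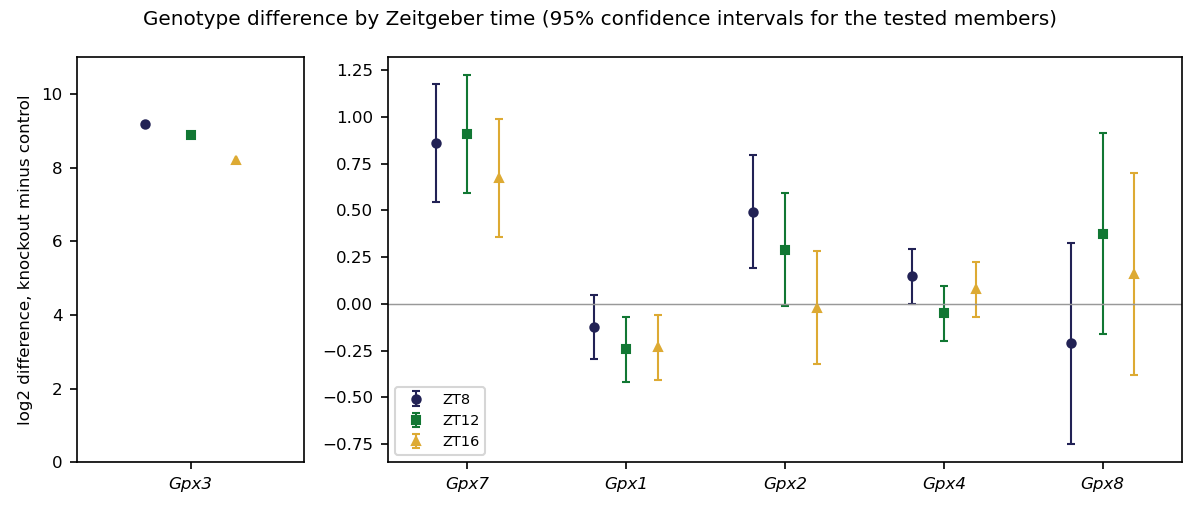
Difference in log2 relative signal, knockout minus control (y axis, a scale of its own for Gpx3), at ZT8, ZT12 and ZT16 for each member; bars are 95% confidence intervals from limma with 6 mice a group, and Gpx3, which was not tested, has none. Gpx7 is above 0 at each time (0.86, 0.91 and 0.67), and the interval of Gpx1 lies below 0 at ZT12 and ZT16.

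Gpx7, a cysteine peroxidase that passes oxidizing equivalents to protein disulfide isomerase in the endoplasmic reticulum, was the only other member higher in knockouts at all 3 times. At ZT8 the controls read -2.21 to -1.59 (median -1.90) and the knockouts -1.60 to -0.52 (median -1.03), and 5 of the 6 knockouts lay above all controls. At ZT12 the controls read -2.27 to -1.29 (median -1.81) and the knockouts -1.23 to -0.51 (median -0.88), with no overlap. At ZT16 the controls read -2.01 to -1.77 (median -1.95) and the knockouts -1.39 to -1.03 (median -1.27), again with no overlap. Over all genes, the groups did not overlap for 15.5% at ZT8, 21.3% at ZT12 and 19.2% at ZT16.

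At ZT8 Gpx7 rose by 0.86 on the log2 scale (SE 0.15, adjusted p = 5.30e-05 in limma), by 0.91 at ZT12 (SE 0.15, adjusted p = 2.03e-05) and by 0.67 at ZT16 (SE 0.15, adjusted p = 8.28e-04), which is 1.82-fold, 1.88-fold and 1.59-fold. Each call was kept in all 11 other fits, where the adjusted p was at most 0.00967, 0.00104 and 0.00184, and without any 1 array. The sizes over those 11 fits ran from 0.60 to 0.91 at ZT8, 0.62 to 0.94 at ZT12 and 0.45 to 0.69 at ZT16. The probe was dim in controls, at group medians of 99.0 to 107 intensity units. Within wash batches the difference was above 0 in 3 of 3 batches at each time, with 0.40 to 1.28 at ZT8. Being called higher at all 3 times held for 8.89% of all genes. The size of the Gpx7 difference did not change between times past the threshold (F test in limma, adjusted p = 0.784), and no time difference within a genotype was called in the main model.

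Markers of other liver cell types were counted as well. For scale, 16.7%, 19.6% and 19.9% of all genes were called higher at ZT8, ZT12 and ZT16, and 18.7%, 22.6% and 20.0% lower. Of 5 endothelial markers none was called higher at ZT8, 5 at ZT12 and 4 at ZT16, and their summed linear signal was 27.3 to 34.0 in controls and 26.2 to 36.3 in knockouts at ZT8, against 24.1 to 30.3 and 30.8 to 44.9 at ZT12 and 25.7 to 38.1 and 33.6 to 44.0 at ZT16. Of 5 macrophage markers 1, 3 and 1 were called higher, with sums of 13.05 to 90.4 in the controls and 28.2 to 194 in the knockouts. Of 7 stellate cell and fibroblast markers none was called at ZT8, and 1 was higher and 1 lower at each of ZT12 and ZT16, with sums of 39.0 to 86.7 in controls and 40.6 to 109 in knockouts. Their part in the Gpx7 and Gpx8 values was not tested.

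Gpx8, a membrane-bound peroxidase of the endoplasmic reticulum, was not called between genotypes. Controls read -2.72 to -2.22 at ZT8, -3.13 to -2.46 at ZT12 and -2.75 to -1.93 at ZT16, and knockouts -3.61 to -1.27, -2.71 to -1.94 and -2.91 to -1.38. The groups overlapped at each time, and the 6 knockouts at ZT8 were the most spread of all, with an SD of 0.87. Differences were -0.21 (95% interval -0.75 to 0.33, limma adjusted p = 0.573), 0.38 (-0.16 to 0.91, 0.262) and 0.16 (-0.38 to 0.70, 0.665) at ZT8, ZT12 and ZT16. The ZT12 interval holds 0 and also the 0.91 measured for Gpx7 at that time. The highest ZT8 knockout, at -1.27, was replicate 3, the mouse that stood apart. Without it the knockouts were higher at ZT16 than at ZT8 by 0.72 (adjusted p = 0.0142), against 0.43 (0.241) with it, and the genotype difference at ZT8 was -0.50 (0.0885).

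Gpx1, the main cytosolic form in liver, was slightly lower in knockouts at ZT12 and ZT16. Controls read 8.60 to 8.86, 8.52 to 9.003 and 8.53 to 8.91 at ZT8, ZT12 and ZT16, and knockouts 8.19 to 8.80, 8.39 to 8.70 and 8.43 to 8.62. The groups overlapped at every time. In scanner units, before scaling, the median was not lower in knockouts: 160249 in controls and 165244 in knockouts at ZT12, and 156847 and 163968 at ZT16. The 75th percentile itself was 343 to 390 in controls and 394 to 525 in knockouts at ZT12, and 311 to 446 and 369 to 461 at ZT16. The lower reading is thus relative to the other probes of the same array. Gpx1 fell by 0.24 on the log2 scale at ZT12 (SE 0.08, limma adjusted p = 0.0220) and by 0.23 at ZT16 (SE 0.08, 0.0297), to 0.85 of the control level. At ZT8 the difference was -0.12 (95% interval -0.30 to 0.05, adjusted p = 0.272), and -0.03 (0.812) without knockout replicate 3, which read lowest. Whether the effect differed between times was tested and was not called (F test, adjusted p = 0.806). Over all genes 16.7%, 19.6% and 19.9% were called higher at ZT8, ZT12 and ZT16, and 18.7%, 22.6% and 20.0% lower. Of 4 red cell markers, none was called higher and 1 lower at ZT8, and 2 were higher and 1 lower, Alas2, at each of ZT12 and ZT16. Their summed linear signal was 215 to 591 in controls and 180 to 369 in knockouts at ZT8, 155 to 328 and 285 to 660 at ZT12, and 210 to 338 and 361 to 617 at ZT16. Their part in the Gpx1 values was not tested.

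The Gpx1 calls were lost in some other fits and without some single arrays, though both were kept with quantile normalization (-0.24, adjusted p = 0.0136 at ZT12 and -0.26, 0.00770 at ZT16). At ZT12 the call was lost in the authors' deposited table (-0.16, adjusted p = 0.0812), in a fit of these 2 groups alone (-0.25, 0.0526), and without control ZT12 replicate 4 (-0.22, 0.0564), control replicate 5 (-0.20, 0.0737) or knockout ZT12 replicate 2 (-0.20, 0.0615). At ZT16 it was lost with normexp (-0.18, 0.0947), in the authors' deposited table (-0.07, 0.475) and with no filter on dim probes (-0.23, 0.0576). It was also lost there without control ZT16 replicate 6 (-0.20, 0.0755), 1 (-0.21, 0.0733) or 4 (-0.22, 0.0555), or without knockout ZT16 replicate 6 (-0.21, 0.0572) or 2 (-0.23, 0.0547).

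Gpx2, the gut form, was higher in knockouts at ZT8 and fell over the sampled hours in knockouts. At ZT8 the controls read -2.97 to -2.31 (median -2.61) and the knockouts -2.49 to -1.57 (median -2.08), and 4 of the 6 knockouts lay above all controls. At ZT12 the ranges were -3.22 to -2.43 and -2.91 to -2.38, and at ZT16 they were -3.11 to -2.38 and -3.27 to -2.58, with overlap at both times. Gpx2 rose by 0.49 at ZT8 (SE 0.15, limma adjusted p = 0.00968), and without knockout replicate 3 the value was 0.55 (0.00581). The probe was dim, with group medians of 49.0 to 95.9 intensity units. Over 11 other fits the ZT8 difference ran from 0.29 to 0.58 and was called in each. At ZT12 the difference was 0.29 (95% interval -0.01 to 0.59, adjusted p = 0.114) and at ZT16 -0.02 (-0.32 to 0.28, 0.924). Without control ZT12 replicate 6 the ZT12 value was 0.37 (0.0487).

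Within knockouts Gpx2 fell by 0.80 from ZT8 to ZT16 (SE 0.15, limma adjusted p = 9.91e-05), and all 6 ZT16 knockouts lay below all ZT8 knockouts. Over 11 other fits this difference ran from -0.91 to -0.48 and was called in each. Of all genes, 28.9% were called in that comparison. The fall by 0.49 from ZT8 to ZT12 (SE 0.15, adjusted p = 0.0286, 13.2% of all genes called) was lost with no filter on dim probes (0.0525) and in a fit of these 2 groups alone (0.129). It was lost too without knockout ZT8 replicate 2 (-0.48, 0.0588), 5 (-0.43, 0.103) or 6 (-0.40, 0.0786), or without knockout ZT12 replicate 2 (-0.44, 0.0618), 3 (-0.46, 0.0577) or 6 (-0.45, 0.0694). In controls the ZT16 value was lower by 0.28, which was not called (95% interval -0.59 to 0.02, adjusted p = 0.167). The test of the difference itself did not pass: the genotype effect moved by -0.51 from ZT8 to ZT16 (SE 0.21, adjusted p = 0.126, 9.75% of all genes called; 0.260 for the F test over the 3 times).

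Of the 3 gut epithelium markers tested, Lgals4 was higher in knockouts at ZT8 (1.28, limma adjusted p = 0.000928), with differences of -0.06 and -0.11 at ZT12 and ZT16 that did not pass the test, Vil1 was higher at each time and Fabp2 was lower at each time (-3.16, -3.66 and -3.33). The summed linear signal of the gut list was 16.4 to 49.2 in controls and 3.97 to 21.5 in knockouts. Cdx2, the defining intestinal factor, was well above background on 2 control arrays and 1 knockout array. The part of other cells in the Gpx2 values was not tested.

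Gpx4, which guards membrane lipids against peroxidation, was not called between genotypes at any time. Controls read 5.73 to 6.11, 5.94 to 6.32 and 5.78 to 6.18 at ZT8, ZT12 and ZT16, and knockouts 5.74 to 6.08, 5.88 to 6.28 and 5.94 to 6.19. The differences were 0.15 (95% interval -0.0013 to 0.30, limma adjusted p = 0.116), -0.05 (-0.20 to 0.10, 0.607) and 0.08 (-0.07 to 0.23, 0.422), so these intervals leave room for a change of up to 0.30. Without knockout ZT8 replicate 4, which read 5.74, the ZT8 value was 0.19 (0.0480). In controls Gpx4 was higher at ZT12 than at ZT8 by 0.26 (SE 0.07, adjusted p = 0.0111, 14.8% of all genes called), and 3 of the 6 ZT12 mice lay above all ZT8 mice. That call was lost with quantile normalization (0.16, 0.261), in the authors' deposited table (0.14, 0.304) and in a fit of these 2 groups alone (0.26, 0.0546).

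Counted together, 2 of the 5 tested members were called at ZT8 (Gpx2 and Gpx7, both higher), 2 at ZT12 and 2 at ZT16 (Gpx7 higher and Gpx1 lower at both). Over all 23057 genes 35.4%, 42.2% and 39.9% were called at these times, so the share of members called was close to that of all genes. None of the 5 passed the F test for a genotype effect that differs between times, which 8.46% of all genes passed at an adjusted p under 0.05; at an unadjusted p under 0.05 none did either, the lowest being 0.0619 for Gpx2.

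Genes that make and recycle glutathione, the substrate of these enzymes, were called in both directions. Of the 12 tested genes of this list of 14, 4 were called higher and 3 lower at ZT8, 2 higher and 3 lower at ZT12, and 2 higher and 3 lower at ZT16. The share called was 58.3%, 41.7% and 41.7%, against 35.4%, 42.2% and 39.9% of all genes, so it was close to that of all genes at ZT12 and ZT16. The median difference was 0.077, 0.00091 and -0.11, against 0.0070, -0.017 and 0.0029 over all genes. Gclc, the catalytic subunit of the enzyme that sets the rate of glutathione synthesis, fell by 0.72, 1.11 and 0.68 (SE 0.13, limma adjusted p = 6.72e-05, 6.33e-08 and 1.22e-04). Its control mean at ZT12 was 4.99 ± 0.13 and its knockout mean 3.92 ± 0.23 (SD, n = 6), with no overlap there or at ZT16. Chac2, which breaks glutathione down, fell by 0.90, 0.93 and 1.00 (SE 0.10) with no overlap at any time. Gss, which makes glutathione from the product of Gclc and was named after its values were seen, rose by 0.73, 0.57 and 0.54 with no overlap at any time.

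Glrx, a glutaredoxin that removes glutathione from protein thiols, changed direction with time. Controls read 0.93 ± 0.14 at ZT8 and 2.10 ± 0.20 at ZT16 (SD, n = 6), while knockouts read 1.80 ± 0.21 and 1.55 ± 0.17. Its knockouts were higher by 0.87 at ZT8 (SE 0.11, limma adjusted p = 1.75e-07) and by 0.27 at ZT12 (0.0446) and differed by -0.53 at ZT16 (2.05e-04), and the groups did not overlap at ZT8 or ZT16. The genotype effect moved by -1.41 from ZT8 to ZT16 (SE 0.15, F test adjusted p = 3.05e-06). No member showed such a turn past the test.

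Genes that handle selenium and insert selenocysteine, on which Gpx1 to Gpx4 depend, were called in smaller shares than all genes in the main fit. That difference in shares was not tested. Of 11 genes, 2 were lower at ZT8, 4 at ZT12 and 2 at ZT16 and none was higher, so that 18.2%, 36.4% and 18.2% were called against 35.4%, 42.2% and 39.9% of all genes. The medians were -0.029, -0.12 and -0.023, against 0.0070, -0.017 and 0.0029 over all genes. Scly, the lyase that frees selenium from selenocysteine, fell by 0.31, 0.49 and 0.37 (SE 0.07, limma adjusted p = 5.71e-04, 1.11e-06 and 6.94e-05) with no overlap at any time. Sepsecs, which makes the selenocysteine on its transfer RNA, differed by -0.13 at ZT8 (adjusted p = 0.278) and fell by 0.28 at ZT12 (0.0133) and by 0.63 at ZT16 (2.12e-06). Secisbp2l, a homologue of the factor that binds the selenocysteine insertion element, fell by 0.32 at ZT12 (SE 0.10, adjusted p = 0.00868) and was not called at ZT8 or ZT16 (-0.19 and -0.19). The counts are small and move with the settings: 4 genes at ZT8 and 5 at ZT16 were called with quantile normalization, and 1 at ZT8 without knockout ZT8 replicate 4. With quantile normalization 8450 and 9682 of all 23057 genes were called at ZT8 and ZT16, so the list's share at ZT16 was then no smaller.

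Other selenoproteins were called in both directions. Of 17 tested genes of this list of 18, 1 was higher and 8 lower at ZT8, 3 higher and 9 lower at ZT12, and 4 higher and 8 lower at ZT16, with medians of -0.080, -0.14 and -0.11. At all 3 times 7 were called lower and 1 higher. Over all genes 8.89% were called higher at all 3 times, and the share called lower at all 3 times was not counted. The share called was 52.9%, 70.6% and 70.6%, against 35.4%, 42.2% and 39.9% of all genes, and the imbalance between directions was not tested. Over all genes 16.7%, 19.6% and 19.9% were called higher and 18.7%, 22.6% and 20.0% lower. Dio1, the deiodinase that activates thyroid hormone in liver, fell by 2.53, 2.84 and 3.92 (SE 0.47, limma adjusted p = 7.73e-05, 1.23e-05 and 6.76e-08). At ZT16 its controls read 1.01 to 2.44 and its knockouts -3.34 to -1.15, and the groups did not overlap at any time. Dio3, the deiodinase that inactivates thyroid hormone and the 1 gene called higher at all 3 times, rose by 0.62, 1.49 and 1.11; it was named after its values were seen and was well above background on 24 of the 36 arrays.

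Msrb1, which repairs oxidized methionine, fell by 0.51, 0.62 and 0.77 (SE 0.08, limma adjusted p = 7.38e-06, 2.08e-07 and 5.27e-09) with no overlap at any time. Selenoo, a mitochondrial selenoprotein, fell by 0.64 at ZT8 (SE 0.08, adjusted p = 4.45e-07), by 0.21 at ZT12 (0.0423) and by 0.24 at ZT16 (0.0230). The members that are selenoproteins did not share a direction either, with Gpx3 high in every knockout and Gpx1 called lower at ZT12 and ZT16.

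**Figure D3:**
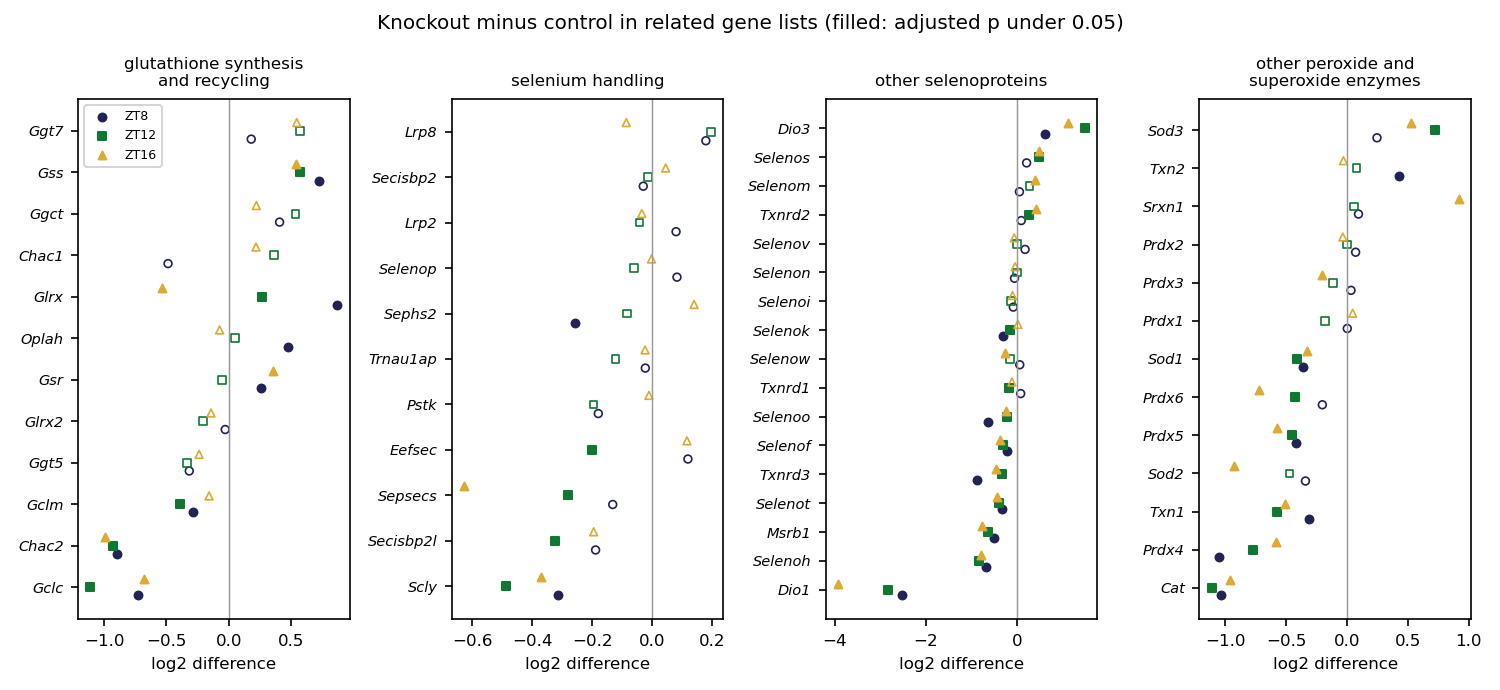
Difference in log2 relative signal, knockout minus control (x axis, a scale of its own in each panel), for the tested genes of 4 related lists at ZT8, ZT12 and ZT16; filled symbols have an adjusted p under 0.05 in limma with 6 mice a group. Dio1 reaches -3.92 at ZT16, Glrx runs from 0.87 to -0.53, and 5 peroxide and superoxide enzymes are filled below 0 at all 3 times. The share of all genes called lower at all 3 times was not counted.

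Enzymes that remove peroxide and superoxide by other routes were called in both directions. Of 13 genes, 1 was higher and 5 lower at ZT8, 1 higher and 6 lower at ZT12, and 2 higher and 8 lower at ZT16, with medians of -0.20, -0.41 and -0.33. The share called was 46.2%, 53.8% and 76.9%, against 35.4%, 42.2% and 39.9% of all genes. Prdx4, the peroxiredoxin of the endoplasmic reticulum, the compartment of Gpx7 and Gpx8, fell by 1.05, 0.77 and 0.58 (SE 0.09, limma adjusted p = 3.12e-10, 7.23e-08 and 8.20e-06). At ZT8 its controls read 4.10 to 4.20 and its knockouts 2.91 to 3.24. Prdx5, a mitochondrial and peroxisomal peroxiredoxin, fell by 0.42, 0.45 and 0.58 (SE 0.05) and Txn1, the cytosolic thioredoxin, by 0.31, 0.58 and 0.51 (SE 0.07), both with no overlap at any time. Cat, catalase, named after its values were seen, fell by 1.04, 1.11 and 0.96 (SE 0.14) with no overlap at any time. These lists were drawn up with earlier results of the same arrays known, and each stands here by its counts.

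**Figure D4:**
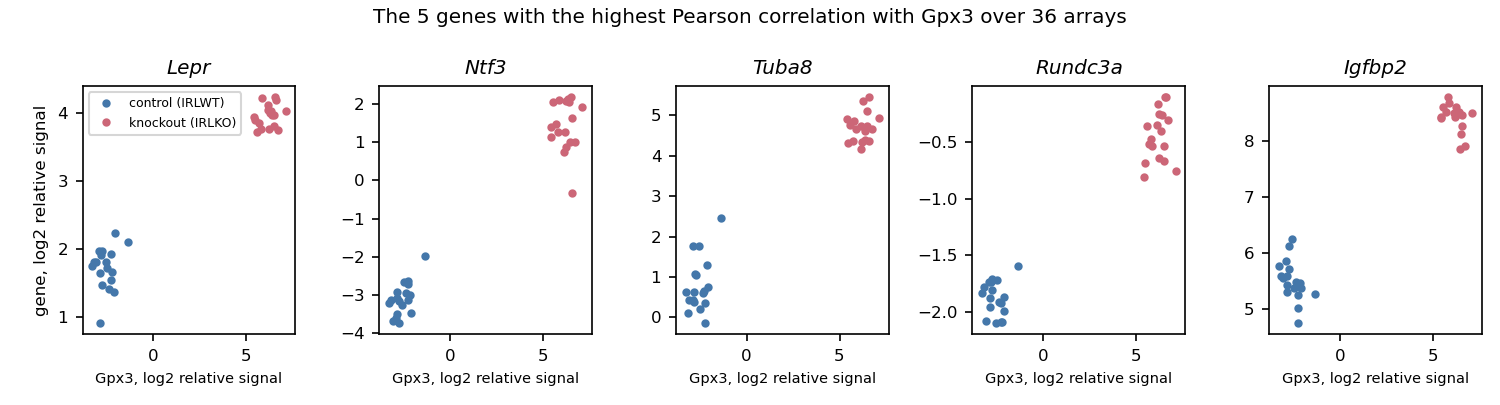
Log2 relative signal of the 5 genes with the highest Pearson correlation with Gpx3 over 36 arrays (y axis) against Gpx3 (x axis); points are mice, blue for controls and red for knockouts. Each panel shows 2 separate clouds that follow genotype.

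The genes most like Gpx3 over the 36 arrays were Lepr, the leptin receptor (Pearson r = 0.977), Ntf3 (0.973), Tuba8, an alpha tubulin (0.970), Rundc3a (0.968) and Igfbp2, another insulin-like growth factor binding protein (0.965), over the 17901 genes whose probe was flagged above background on each array. The arrays form 2 clouds, controls and knockouts, so this likeness describes the shared difference between genotypes and the same RNA extracts. In Lepr the controls read 0.91 to 2.24 and the knockouts 3.72 to 4.23, and in Ntf3 the controls read -3.72 to -1.97 and the knockouts -0.32 to 2.17. Igfbp2 read 4.75 to 6.24 in controls and 7.86 to 8.78 in knockouts. Control ZT16 replicate 6, the control with the most Gpx3 (-1.37), also had the highest Ntf3 (-1.97), Tuba8 (2.46) and Rundc3a (-1.59) of the 18 controls. Its Lepr (2.10) was below the highest control and its Igfbp2 (5.26) lay in the lower part of the control range, and its Insr read -1.24, within the range of the controls. The 5 genes were chosen by correlation over arrays that include this one, so shared high values may be partly built in.

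With group means and wash batch removed, the genes most like Gpx3 were Ift22 (r = 0.702), Sigirr (0.692), Zfp579 (0.631), a locus that the array names by position on chromosome X (0.627) and Anxa6 (0.616), none of them among the 5 above. Of the other members Gpx7 had the highest likeness over all arrays (r = 0.816, place 425 of 17901), then Gpx2 (0.335), Gpx4 (0.231), Gpx8 (0.151) and Gpx1 (-0.600). With group means and wash batch removed Gpx7 turned to r = -0.549, place 17782, so mice with more Gpx3 than their group tended to read less Gpx7. These values describe 36 arrays and carry no test.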

How the data were processed

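Each of 36 liver RNA samples was read on 1 Agilent 1-colour array. Per the labels and file headers, the authors extracted spot intensity with Agilent Feature Extraction 10.10.1.1; the processed signal is background-subtracted intensity in scanner units. The authors' deposited log2 table holds 32801 probes with identical sorted columns in all samples, and its exact adjustment steps are not given in the sources used here; limma is named in the submitters' processing notes.

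Here, log2 processed intensity was scaled to the 75th percentile of each array. Flagged outlier spots were left out, a probe was kept where at least 6 of the 36 arrays had it flagged as well above background (34681 probes), and the brightest probe stood for a gene. Array gene names were updated through RefSeq accessions (32994 probes matched). limma 3.58.1 in R 4.3.3 fitted 6 group means and wash batch (3 batches of 11 to 13 arrays), with Benjamini-Hochberg adjustment over 23057 genes and a threshold of 0.05; "called" means past it. Calls of members were the same with adjustment over all kept probes. The model was also run on simulated data with independent noise and few changed genes, unlike these data, and no result here rests on that run.

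Replicate numbers did not pair the mice: the mean correlation of deviations was 0.0018 for the same number and 0.00051 otherwise. The labels number the samples of a group and do not say that each is a separate animal, so p-values measure only the spread between these samples, which may be technical. The number of arrays limits the precision. The members and the gene lists were chosen with earlier results of these data known. Named genes are the 6 members, up to 3 called genes a list (those of smallest p), the 5 genes most like Gpx3 by each of 2 measures, and Insr; others are marked in the text. Alternatives were normexp with an offset of 50 intensity units, quantile normalization, the deposited table, other filters and other probe summaries. Further ones were other treatments of batch, slide and replicate number, array weights, fits of 2 groups, and each array left out.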

Additional observations from a re-analysis of the deposited data

Results flagged for a closer look

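Gpx6, a family gene outside the members, was read by 1 probe that was well above background on 18 of 18 control arrays and 5 of 18 knockout arrays. Controls read -3.46 to -2.30 at ZT8, -3.87 to -2.38 at ZT12 and -3.47 to -2.71 at ZT16, and knockouts -6.76 to -4.66, -5.88 to -4.68 and -5.84 to -4.62. The knockouts with a measured signal numbered 2, 1 and 2 of 6, so no difference or test is given. Its name was singled out after its values were seen. The probe of Gpx5 was well above background on 1 array and that of the pseudogene Gpx2-ps1 on 0 of 36.

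In 5 of 108 groups of 6 mice searched, 1 mouse lay far from the other 5, where chance gives about 5.4. Knockout ZT8 replicate 4 read 5.74 for Gpx4 against 5.99 to 6.08 in the others. Control ZT16 replicate 6 read 4.31 for Scly (others 3.95 to 4.08) and 3.67 for Prdx4 (others 4.17 to 4.24). Knockout ZT16 replicate 6 read 2.59 for Selenoo (others 3.00 to 3.20), and knockout ZT8 replicate 3 read 6.36 for Prdx5 (others 6.62 to 6.71).

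For 3 named genes the genotype effect differed between times by limma's F test, and by -1.41 for Glrx (adjusted p = 3.05e-06), -0.50 for Sepsecs (0.0294) and 0.40 for Selenoo (0.0254) from ZT8 to ZT16.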

How the results depend on the processing

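No result with a test reversed. Of 611 comparisons of the 56 tested results with 11 other fits, 596 stayed on the same side of the threshold, and of 792 with 1 array left out, 769 did; the report names those that did not for values past it. With array weights, Gpx7 in knockouts at ZT16 against ZT12 (-0.42, adjusted p = 0.0425) and Gpx8 in knockouts at ZT16 against ZT8 (0.53, 0.0420) passed it too, and without knockout ZT8 replicate 3 so did Gpx1 in knockouts at ZT16 against ZT8 (-0.18, 0.0425).

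The Gpx3 difference at ZT8, ZT12 and ZT16 moved to 8.11, 7.88 and 7.44 with normexp and at ZT8 and ZT12 to 8.52 and 8.31 in the deposited table; without 1 array it ranged over 9.02 to 9.31, no less than 8.76, and 8.10 to 8.38. The count of the 5 members called fell from 2 to 1 at ZT12 in the deposited table and in fits of 2 groups, and at ZT16 with normexp, the deposited table and no filter; without 1 array it ranged from 1 to 3 at ZT12, 1 to 2 at ZT16 and 2 to 3 at ZT8. The selenium list went from 2 called at ZT8 to 4 with quantile normalization, the deposited table and array weights and to 1 in a fit of 2 groups (1 to 3 without 1 array), from 4 at ZT12 to 2 in a fit of 2 groups, and from 2 at ZT16 to 5 with quantile normalization and the deposited table. The cause was not tested.

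With the replicate number as a block beside wash batch, the Gpx3 differences were 9.22, 8.83 and 8.19 and 2 of 5 members were called at each time, so the pairing changed no call of a member; 8 of 36 arrays correlated best with their own number. The control signal of Gpx3 (38.7 to 123 intensity units, over a median local background of 18 to 31) limits how well its fold is known. The same limit holds for Gpx2, for Gpx8 and, in controls, for Gpx7, with group medians between 49.0 and 107 units.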
